A study of Rattus norvegicus with 6 samples.

Results

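The reads described here came from the nuclear glycine tRNAs of AR42J cells, a line of rat exocrine pancreas cells. They were taken from small RNA sequencing of 3 untreated libraries and 3 libraries of cells given 200 µM sodium taurocholate, a bile salt, for 30 min. A read counted as glycine when every mature tRNA it aligned to was a nuclear tRNA with the anticodon GCC, CCC or TCC (GlyGCC, GlyCCC and GlyTCC). This gave 7214 of the 67949 tRNA read sequences and 183056 of 1671615 tRNA reads, aligned to 24 reference tRNAs, and another 43 sequences with 103 reads that also fitted another amino acid were left out. Each sequence was counted by its number of reads in each library. All libraries came from 1 cell line, and the labels do not say whether the 3 libraries of a group were separate cultures, so the spread between them may be technical.

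tRNAs carry amino acids to the ribosome, and glycine uses 3 of them, told apart by the anticodon that pairs with the glycine codons. Nucleases such as angiogenin cut mature tRNAs in the anticodon loop in stressed cells and leave a 5′ and a 3′ piece (tiRNAs), while other cuts give shorter tRNA fragments (tRFs). The 5′ ends of glycine tRNAs are among the tRNA fragments most often seen in small RNA libraries. In these libraries, RNA was treated before ligation, per the labels' protocols, to remove amino acids and 2′,3′-cyclic phosphates from 3′ ends, to phosphorylate 5′ ends, and to remove 1-methyladenosine and 3-methylcytidine.

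The sequences below are error-free reads from the files, 5′ to 3′, with positions counted from 1 at the first base of the mature tRNA. The longest reads, of 51 nt, show how the 3 anticodons differ. The anticodon is in capitals. GlyCCC has a form with its own body (a) and a form that is nearly GlyGCC (b).
GlyGCC 1-51: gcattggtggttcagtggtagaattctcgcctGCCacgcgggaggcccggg
GlyTCC 1-51: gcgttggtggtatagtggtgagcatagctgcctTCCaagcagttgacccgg
GlyCCC a 1-51: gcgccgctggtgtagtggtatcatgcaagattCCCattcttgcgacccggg
GlyCCC b 1-51: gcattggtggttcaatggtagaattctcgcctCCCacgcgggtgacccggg

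The next set holds the abundant 5′ fragments, with the last base in capitals, since the results turn on where they end.
GlyCCC/GlyGCC 1-29: gcattggtggttcagtggtagaattctcG
GlyCCC/GlyGCC 1-30: gcattggtggttcagtggtagaattctcgC
GlyCCC/GlyGCC 1-31: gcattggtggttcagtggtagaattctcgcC
GlyCCC/GlyGCC 1-32: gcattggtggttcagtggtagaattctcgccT
GlyGCC 1-33: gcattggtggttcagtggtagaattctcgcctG
GlyGCC 1-34: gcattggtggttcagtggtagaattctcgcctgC
GlyGCC 1-35: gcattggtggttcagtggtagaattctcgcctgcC

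The last set holds the 3′ fragments that end at the CCA tail, with the A of the T loop in capitals, and the main internal fragment, with its last base in capitals.
GlyCCC/GlyGCC 53-74: tcgAttcccggccaatgcacca
GlyCCC 53-74: tcgAttcccgggcggcgcacca
GlyTCC 54-75: tcgAttcccggccaacgcacca
GlyCCC/GlyGCC 16-31: tggtagaattctcgcC

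The 24 references held 10 distinct sequences. The main GlyGCC sequence was shared by 7 references, and the main GlyTCC sequence by 6. The anticodon lies at positions 33 to 35 in GlyGCC and GlyCCC, which have 74 bases with the CCA tail, and at 34 to 36 in GlyTCC, which has 75. With 2 bases on each side, the anticodon loop of GlyGCC spans positions 31 to 37. A GlyCCC reference on chromosome 2, which is not form b, matches GlyGCC at all of the first 32 bases and all of the last 22. A 5′ fragment ending at 32 or before, or a short 3′ fragment, therefore cannot be assigned to either and forms the GlyCCC/GlyGCC group. Where reads did reach the anticodon, this GlyCCC had 359 reads of its own, 233 of them in untreated replicate 3, against 56310 of the main GlyGCC. Form b, also from chromosome 2, differs from GlyGCC at 1 of the first 32 bases and had 1454 reads of its own. GlyCCC form a, from references on chromosomes 4 and 10, differs from GlyGCC at 13 of the first 32 bases and 4 of the last 22, and it supplied 11854 of the 14028 reads unique to GlyCCC.

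Glycine reads made up 8.59%, 12.0% and 9.08% of tRNA reads in the libraries without taurocholate and 14.2%, 11.2% and 8.85% in those with it. The ranges overlapped, and the difference of 1.52 percentage points was within the spread and ran from 0.152 without taurocholate replicate 1 to 2.81 without taurocholate replicate 3 (9.89% ± 1.85 and 11.4% ± 2.66, SD, n = 3 each; two-sided exact permutation p = 0.6, where 3 against 3 libraries cannot go below 0.1). Without reads of 51 nt the shares were 7.95%, 7.25% and 8.44% untreated and 9.43%, 8.45% and 8.30% with taurocholate (exact permutation p = 0.2), so most of the spread between libraries lay in the longest reads.

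**Figure D1:**
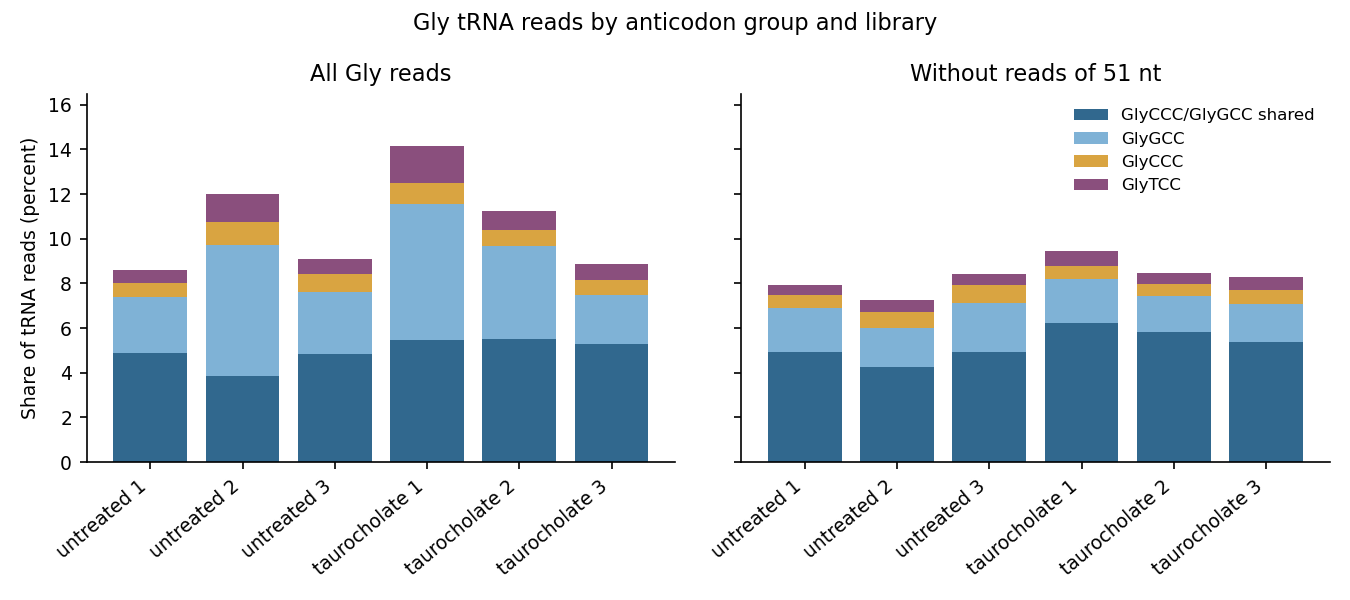
Share of tRNA reads (percent, vertical axis) taken by each glycine anticodon group in each library, with all reads on the left and without reads of 51 nt on the right. The GlyGCC part is tall on the left in untreated replicate 2 and taurocholate replicates 1 and 2, and these columns come close to the others on the right.

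The longest reads in the files have 51 nt, while the labels give 50-bp reads. A read of 51 nt was taken to reach the end of the sequenced stretch, so that it does not show where its RNA ended. These reads were 8.61%, 45.6% and 8.61% of glycine reads in untreated libraries and 41.8%, 28.9% and 7.63% in taurocholate libraries. Untreated replicate 2 and taurocholate replicates 1 and 2 were therefore high and the other 3 libraries low, with no division by treatment. Among all other tRNA reads the share was 0.495% to 7.83%. The glycine share was higher in 6 of 6 libraries, by a mean of 20.6 percentage points ± 15.0 (SD, n = 6; exact sign-flip permutation p = 0.0312, the smallest that 6 libraries can give). Of other mature tRNA reads, 50.2% to 58.1% were 3′ fragments of at most 30 nt, which cannot reach 51 nt. The gap therefore also holds this difference in kinds of fragment. Glycine tRNAs supplied 44.6% to 62.1% of the 51-nt tRNA reads of each library. Nearly all of them (99.2% to 100.0%) began within 3 nt of the 5′ end, and 85.3% to 90.9% began at position 1.

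Among reads from position 1, the anticodons differed in how many ran to 51 nt. For GlyTCC the share was 65.9%, 93.7% and 69.1% untreated and 96.7%, 89.8% and 66.2% with taurocholate. For GlyCCC it was 42.6% to 86.4% over the 6 libraries, and for GlyGCC reads that could be told from GlyCCC it was 31.3% to 82.1%. GlyTCC was above GlyCCC, and GlyCCC above GlyGCC, in every library. The shares of GlyCCC and GlyGCC leave out their shared shorter fragments and so are not shares of all their 5′ reads. For comparison, the share among all glycine reads from position 1 was 11.5% to 59.6%, that of Glu tRNA, another common source of tiRNAs, 0.231% to 2.03%, and that of Lys tRNA 9.20% to 68.5%. It was 4.78% to 58.3% for Val, 2.70% to 37.8% for His and 13.9% to 68.8% for Asp tRNA. Asp was above glycine in every library but untreated replicate 2, so a high share was not particular to glycine.

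GlyCCC/GlyGCC was the largest group of glycine reads under 51 nt. It took 62.1%, 58.9% and 58.3% of them in untreated libraries and 66.2%, 69.0% and 64.8% in taurocholate libraries, where every library was above every untreated one (exact permutation p = 0.1; adjusted over 4 groups, 0.2). GlyGCC took 24.6%, 24.0% and 26.3% untreated and 20.5%, 18.9% and 20.4% with taurocholate, the reverse order with no overlap (p = 0.1, adjusted 0.2, exact permutation test). GlyTCC took 6.41% ± 0.694 and 6.39% ± 0.694, and GlyCCC 8.76% ± 1.36 and 6.99% ± 0.756 (SD, n = 3 each), both with overlapping libraries. With the 51-nt reads included, the groups overlapped for all 4 shares and the adjusted exact permutation p was 0.8 or 1, and the difference in the GlyTCC share, 0.832 percentage points, was -0.0240 without them. A 5′ read of the main GlyGCC sequence falls into GlyCCC/GlyGCC or GlyGCC by whether it passes position 32, so these shares are in part set by the end positions below. Both groups also hold fragments that do not start at the 5′ end.

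Most glycine fragments under 51 nt came from the 5′ end. Reads that began within 3 nt of it were 60.2%, 54.8% and 56.8% of glycine reads under 51 nt in untreated libraries and 63.8%, 64.1% and 57.8% with taurocholate (exact permutation p = 0.2). tiRNA-5, 5′ reads of at least 31 nt, held 42.8% to 46.7% of glycine reads under 51 nt in all 6 libraries, and their group means differed by -0.165 percentage points. tRF-5, 5′ reads of at most 30 nt, held 13.5%, 11.7% and 12.8% untreated and 19.8%, 17.5% and 15.0% with taurocholate. All 3 taurocholate libraries were above the untreated ones in tRF-5 (exact permutation p = 0.1). The limit of 30 nt between tRF-5 and tiRNA-5 falls within the main group of end positions described below. The tRF-5 share is therefore in part set by those ends. i-tRF, fragments from inside the tRNA, went the other way from tRF-5, with 17.1%, 14.9% and 20.8% untreated and 10.9%, 13.6% and 13.4% with taurocholate (p = 0.1, exact permutation test, groups apart). Among other mature tRNA reads of all lengths, the i-tRF share was 23.1%, 20.1% and 23.2% untreated and 16.2%, 19.3% and 21.2% with taurocholate. Those groups overlapped, with a difference of -3.25 percentage points, so a lower mean i-tRF share was not particular to glycine.

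The cut sites of the 5′ fragments lay at the near side of the anticodon loop. Of the reads that began at position 1 and were under 51 nt, 85.0% to 90.7% in each library ended at positions 30 to 35. Position 31, the first base of the loop, was the most frequent end, with 40.8%, 40.7% and 37.7% of these reads in untreated libraries and 47.2%, 55.1% and 45.0% in taurocholate libraries. Position 30, the last base of the stem, held 9.28%, 8.83% and 10.2% untreated and 19.9%, 16.01% and 12.6% with taurocholate. At both positions every taurocholate library was above every untreated one.

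Positions further into the loop held fewer reads with taurocholate. Position 32 held 17.2%, 15.0% and 19.6% untreated and 8.04%, 7.44% and 12.3% with taurocholate. Position 34, in the anticodon, held 9.74%, 5.43% and 6.38% untreated and 3.59%, 3.83% and 5.16% with taurocholate. Both were lower in every taurocholate library, while position 33, the first anticodon base, overlapped between the groups (8.15% ± 1.08 and 7.28% ± 1.80, SD, n = 3 each). For positions 30, 31, 32 and 34 the exact permutation p was 0.1, the smallest possible, or 0.125 adjusted over the 5 positions that held at least 5% of the reads, and for position 33 it was 0.6. The differences at 30, 31, 32 and 34 were 6.75, 9.43, -8.01 and -2.99 percentage points, and at 34 it was -1.71 without untreated replicate 1. Position 35 stood at 6.09% ± 0.928 and 3.18% ± 0.742 and fell below that 5% rule in the mean over all libraries.

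**Figure D2:**
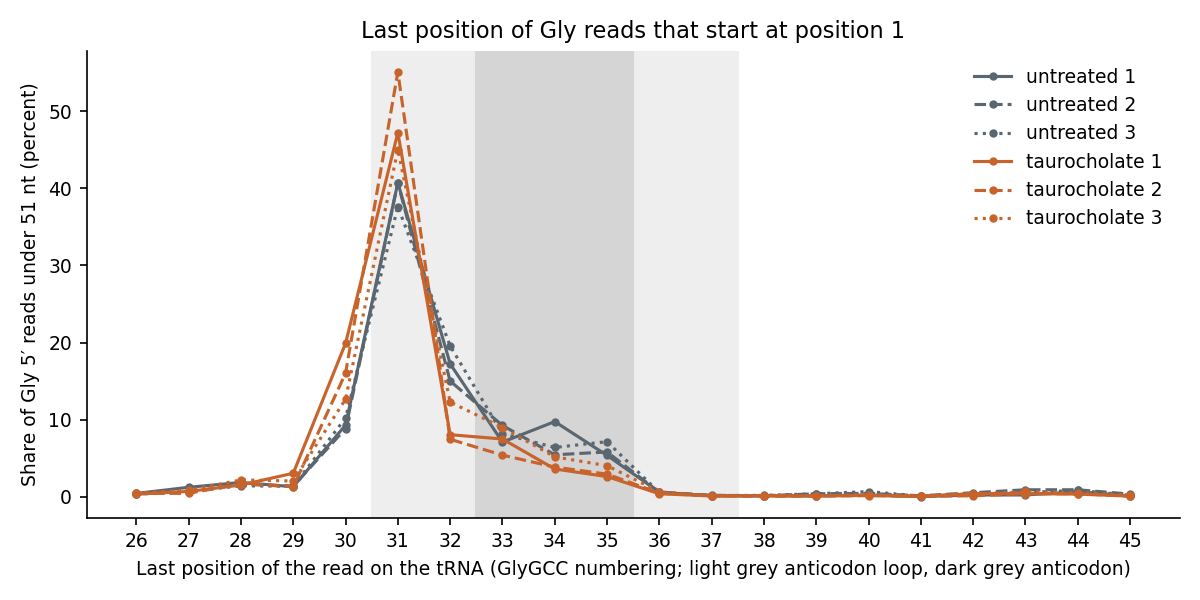
Share of glycine reads from position 1 under 51 nt (percent, vertical axis) by last position on the tRNA (horizontal axis), 1 line per library, with the anticodon loop in light grey and the anticodon in dark grey. Taurocholate libraries are above the untreated ones at positions 30 and 31 and below them at 32, 34 and 35.

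In read counts the same shift was seen for single fragments. GlyCCC/GlyGCC 1-30 had 739, 962 and 951 reads in untreated libraries and 3135, 1900 and 1672 in taurocholate libraries, or 3572 ± 721 and 7392 ± 1906 reads per 1000000 tRNA reads (CPM; SD, n = 3 each). GlyCCC/GlyGCC 1-31, the most abundant glycine fragment, had 3351, 4505 and 3580 reads without taurocholate and 7587, 6660 and 6054 with it. GlyCCC/GlyGCC 1-32 had 1399, 1621 and 1765 untreated and 1252, 848 and 1602 with taurocholate. In CPM the groups stood apart for the fragments ending at 30 and 31 and overlapped for the one ending at 32. GlyGCC 1-35, which keeps the whole anticodon, stood apart in the lower direction, with 2380 ± 559 and 1473 ± 248 CPM, and GlyGCC 1-33 overlapped, with 2377 ± 214 and 2857 ± 663 CPM.

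The shift appears as shorter 5′ fragments. The mean length of reads from position 1 between 26 and 40 nt was 31.60, 31.61 and 31.72 nt in untreated libraries and 31.07, 31.11 and 31.34 nt in taurocholate libraries, a difference of -0.471 nt (31.6 ± 0.0645 and 31.2 ± 0.143, SD, n = 3 each; exact permutation p = 0.1). The longest taurocholate mean lay below the shortest untreated one. Reads of Glu, Val, His, Asp and Lys tRNAs chosen the same way were also shorter in every taurocholate library, with differences of -0.422, -0.266, -0.290, -0.482 and -0.461 nt, and the difference was -0.323 nt for all nuclear tRNAs but glycine. Within a library, the glycine mean minus that of the other nuclear tRNAs was -0.275, -0.364 and -0.321 nt untreated and -0.507, -0.403 and -0.492 nt with taurocholate. The groups did not overlap in this measure either (difference -0.148 nt, exact permutation p = 0.1).

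**Figure D3:**
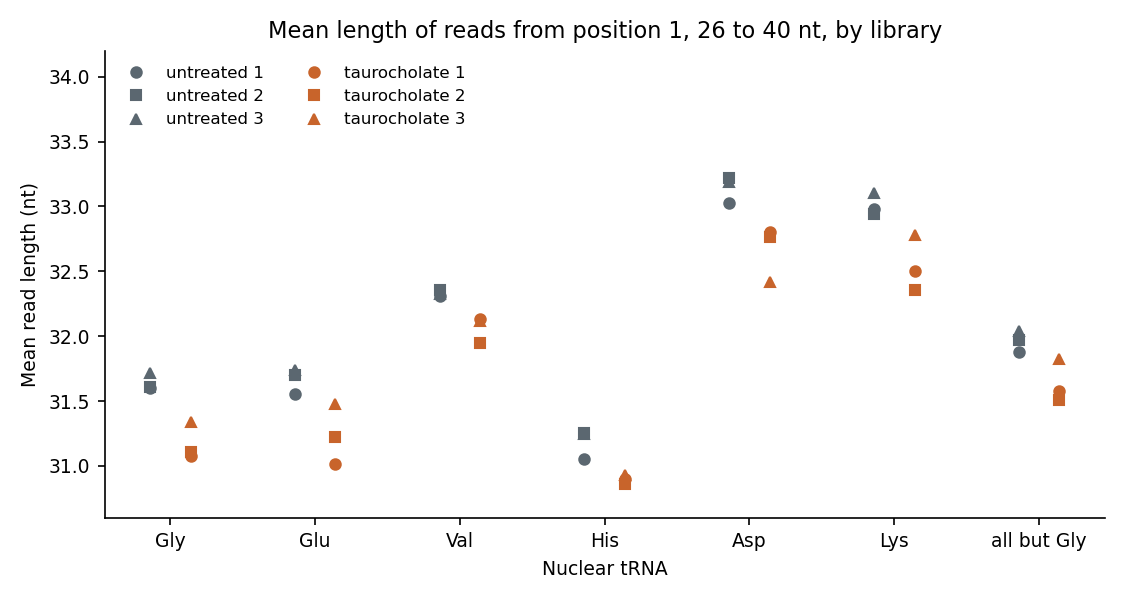
Mean length (nt, vertical axis) of reads that start at position 1 and have 26 to 40 nt, for glycine and other nuclear tRNAs, 1 point per library. In each column shown the taurocholate libraries (31.07 to 31.34 nt for Gly) are below the untreated ones (31.60 to 31.72 nt for Gly).

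Reads assigned to the different anticodons did not end alike. Of 723 GlyTCC reads from position 1 under 51 nt, 371 ended at position 44, past the anticodon loop (54, 89 and 70 untreated and 49, 40 and 69 with taurocholate), and only 87 ended at 32, the first base of its loop. Reads unique to GlyCCC spread over several ends, of which 33 (145 reads), 32 (143), 34 (109) and 39 (108) were the most frequent. Form a supplied 663 of these 1077 reads. The GlyCCC that matches GlyGCC over the first 32 bases is told apart only past them, so part of this spread follows from the grouping. By their numbers, the 31737 GlyCCC/GlyGCC reads at 31 and 9359 at 30 set the glycine pattern, and GlyTCC and form a of GlyCCC added few reads to it. Compared position by position, each of these differs from GlyGCC at 13 of the first 32 bases. For GlyTCC this count allows no gap for the extra base that it has before the anticodon. Where GlyTCC 5′ fragments ended was mostly out of view, since 7178 GlyTCC reads from position 1 reached 51 nt.

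The 3′ fragments fell into a long and a short kind. tRF-3, which end within 3 nt of the CCA tail and have at most 30 nt, held 22.4%, 30.0% and 21.99% of glycine reads under 51 nt untreated and 25.1%, 22.1% and 28.4% with taurocholate. This was less than the tRF-3 share of other mature tRNA reads, which was 50.2% to 58.1%. Fragments that began 22 nt from the 3′ end were 48.3% to 62.1% of glycine tRF-3, and those that began 18 nt from it 18.6% to 26.6%. The 18-nt kind was less frequent in every taurocholate library (25.5%, 22.1% and 26.6% untreated and 20.9%, 18.6% and 18.9% with taurocholate; exact permutation p = 0.1), and the 22-nt kind overlapped (51.9% ± 4.48 and 59.0% ± 4.24, SD, n = 3 each).

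The ratio of fragments that began 22 nt from the end to those that began 16 to 18 nt from it depended on the tRNA. It was 1.40 to 2.33 for GlyCCC/GlyGCC and 1.07 to 2.069 for GlyTCC, and 0.418 to 0.910 for GlyCCC, where short fragments outnumbered long ones in 6 of 6 libraries. For GlyTCC it was 1.11, 1.32 and 1.07 untreated and 1.43, 2.069 and 1.63 with taurocholate, with no overlap (exact permutation p = 0.1). Most tRF-3 kept the whole CCA tail, which the cell adds to each tRNA and to which the amino acid is joined. The share with CCA was 75.4%, 77.5% and 77.5% untreated and 84.1%, 79.3% and 80.7% with taurocholate, and nearly all others ended at CC. Every taurocholate library was above the untreated ones in this share (exact permutation p = 0.1). The share goes by end position, so a read with a mismatch in place of the last A also counts. In error-free reads, GlyCCC/GlyGCC 53-74 and 53-73 had edgeR log2 fold changes of 0.37 and 0.38, against 0.55 and 0.23 in all reads. In error-free reads GlyCCC 53-74 and 53-73 had 0.41 and -0.016. GlyTCC 54-75 and 54-74 had 0.57 and 0.40 there, so the groups were not alike.

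Among single 3′ fragments, GlyCCC/GlyGCC 53-74 had 898, 2030 and 1098 reads without taurocholate and 2135, 1438 and 2319 with it. Its level was 5080 ± 650 and 6506 ± 980 CPM, and the groups overlapped. GlyTCC 54-75, which has 1 base different from it, had 234, 499 and 282 reads without taurocholate and 696, 423 and 609 with it, or 1289 ± 124 and 1901 ± 213 CPM with no overlap. It was named after its values were seen. tiRNA-3, the longer 3′ pieces, held only 0.169% to 0.375% of glycine reads under 51 nt, against 42.8% to 46.7% for tiRNA-5. The partner of tiRNA-5 was thus scarcely seen among the reads in the files, which differ from the tRNA by at most 1 base.

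The internal fragments of glycine were led by GlyCCC/GlyGCC 16-31, with 502, 534 and 456 reads without taurocholate and 536, 622 and 580 with it. It ends where the most abundant 5′ fragment ends. GlyGCC 19-38 followed with 194, 236 and 162 reads without taurocholate and 330, 361 and 297 with it. Of all glycine i-tRF, those from position 19 were 11.4%, 13.3% and 7.95% untreated and 15.3%, 17.6% and 14.7% with taurocholate, with no overlap (exact permutation p = 0.1). In CPM GlyGCC 19-38 overlapped between groups (795 ± 180 and 1120 ± 256, SD, n = 3 each). So did GlyCCC/GlyGCC 16-31, with 2036 ± 531 CPM untreated and 1972 ± 433 with taurocholate. i-tRF GlyCCC had 147, 231 and 459 reads without taurocholate and 174, 125 and 185 with it. Its lower level with taurocholate rested on untreated replicate 3: the log2 fold change was -0.92 (SE 0.38), and -0.31 without that library.

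No glycine feature passed the test of a change with taurocholate. Reads were summed into features by class and anticodon group and compared with edgeR's quasi-likelihood test over all 235 tRNA features with enough reads, where 0 were called at an adjusted p under 0.05 (0% of all features). Of 25 glycine features 18 passed the filter on low counts, with 99.97% of glycine reads in features, and 0 were called, by this test or by DESeq2's Wald test. At an unadjusted p under 0.05, 4 of the 18 were higher and 1 lower, against 5.11% of all features higher and 5.11% lower, and 4 were past it in DESeq2. The median log2 fold change was 0.29 over the 18 glycine features and 0.01 over all features. Without taurocholate replicate 1 the glycine median was -0.05, beside -0.06 over all features. Without reads of 51 nt it was 0.04, beside 0.02 over all features.

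The feature with the smallest p was tRF-5 GlyCCC/GlyGCC, the 5′ fragments of at most 30 nt. It had 1908, 2523 and 2269 reads in untreated libraries and 5096, 3426 and 3554 in taurocholate libraries, all above the untreated ones in CPM. The log2 fold change was 0.72 (SE 0.19; edgeR adjusted p = 0.364), and 0.57 without taurocholate replicate 1. GlyCCC/GlyGCC 1-30 had 9359 reads over all libraries, beside 18776 in this feature. The higher level of the feature and that of end position 30 thus rest largely on the same reads and are not separate results. tiRNA-5 GlyCCC/GlyGCC, the longer reads of the same sequences, had 4688, 5919 and 5268 reads without taurocholate and 8404, 7060 and 7377 with it, with a log2 fold change of 0.40 (SE 0.17; edgeR adjusted p = 0.471). In CPM its groups overlapped. tRF-5 GlyCCC stood at 0.61 (SE 0.23) from 34 to 88 reads a library. tRF-3 GlyTCC stood at 0.43 (SE 0.17), with 626, 1176 and 760 reads without taurocholate and 1506, 880 and 1321 with it, apart in CPM. In CPM the groups did not overlap for 3 of the 18 glycine features (17.9% of all features did not overlap).

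The tiRNA-5 features that could be assigned to an anticodon varied most between libraries, since they held the 51-nt reads. tiRNA-5 GlyGCC had 3326, 18342 and 4067 reads without taurocholate and 18507, 8915 and 4577 with it. Its log2 fold change was 0.39 (SE 0.61) with all reads and -0.02 without reads of 51 nt. tiRNA-5 GlyTCC went from 0.66 (SE 0.85) to -0.33, and tiRNA-5 GlyCCC from 0.28 (SE 0.68) to -0.41. A direction could not be given for these 3 features, since the sign turned with the 51-nt reads and also without taurocholate replicate 1 (-0.17, -0.37 and -0.38). The other 10 features, 3 tRF-3, 3 i-tRF, 2 tiRNA-3 and 2 tRF-5, had log2 fold changes of -0.50 to 0.70, and the unadjusted p was above 0.05 for each. Of them, tRF-5 GlyGCC (0.70, SE 0.57) turned to -0.15 without taurocholate replicate 1.

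**Figure D4:**
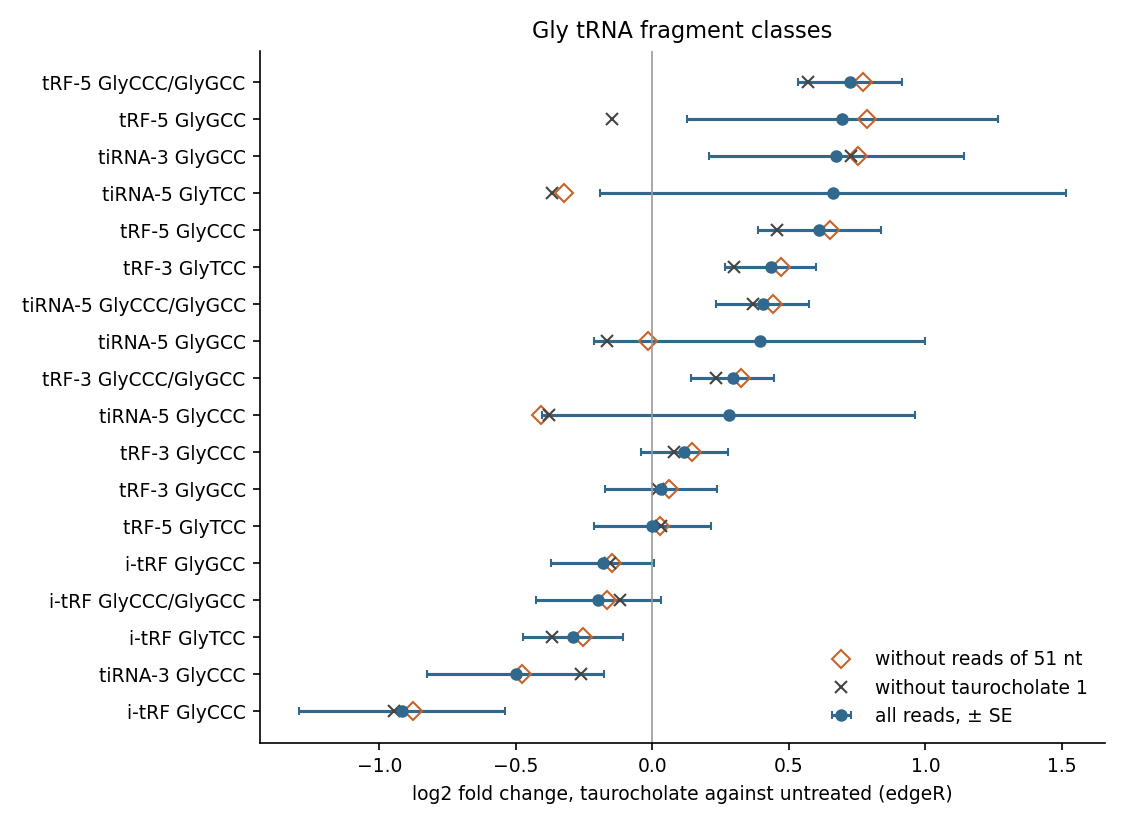
Log2 fold change with taurocholate (horizontal axis) for the 18 glycine features tested, with bars of 1 SE from edgeR, diamonds without reads of 51 nt and crosses without taurocholate replicate 1. The short 5′ fragments of GlyCCC/GlyGCC keep a positive value (0.72, 0.77 and 0.57), while tiRNA-5 of GlyGCC, GlyCCC and GlyTCC cross 0.

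The finer table, which counts reads by both ends, gave the same outcome. Of 1425 fragments tested 1 was called (0.0702%), a Cys fragment, and of the 153 glycine fragments tested 0 were called by edgeR or DESeq2. At an unadjusted p under 0.05, 10 glycine fragments were higher and 6 lower, against 9.26% and 6.46% of all fragments, and 9 passed it in DESeq2. With library totals in place of edgeR's scaling factors, which moved the median of all fragments from 0.04 to -0.15, the split at that p was 4 higher of 17. With no filter on low counts 45 of 18095 fragments were called (0.249%), 6 of them among 1622 of glycine. These were GlyCCC/GlyGCC 1-29 and 1-30, GlyGCC 1-30 and 1-31, which rested on taurocholate replicate 1 (log2 fold changes of 0.19 and -0.26 without it), and GlyGCC 3-47 and 10-47, the last with 18 of its 19 reads in untreated replicate 3. The median over the glycine fragments was 0.01, and over all fragments 0.04. In CPM 24 of the 153 did not overlap between groups (21.2% of all fragments did not).

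The higher glycine fragments of smallest p were the 5′ fragments ending at or before the start of the loop. GlyCCC/GlyGCC 1-30 had a log2 fold change of 1.31 (SE 0.31; edgeR adjusted p = 0.212), and 0.96 without taurocholate replicate 1. GlyCCC/GlyGCC 1-29, with 96, 131 and 114 reads without taurocholate and 473, 143 and 245 with it, stood at 1.28 (SE 0.38), but at 0.64 without taurocholate replicate 1. GlyCCC/GlyGCC 1-31 stood at 0.80 (SE 0.24; edgeR adjusted p = 0.218). The lower ones of smallest p were thinly covered: GlyGCC 15-35, with 17, 29 and 16 reads without taurocholate and 9, 9 and 7 with it, stood at -1.31 (SE 0.36), GlyCCC 1-39 at -1.44 (SE 0.45) and GlyCCC 37-52 at -1.78 (SE 0.61). GlyCCC/GlyGCC 1-32 stood at -0.48 (SE 0.24) and GlyGCC 1-35 at -0.49 (SE 0.22), and GlyGCC 1-33 at 0.49 (SE 0.26), or 0.20 without taurocholate replicate 1, none of them called. Fragments of 51 nt had wide errors, as GlyGCC 1-51 (0.88, SE 0.94) with 819, 10703 and 952 reads without taurocholate and 12478, 4854 and 1096 with it.

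Glu, Val, His, Asp and Lys tRNAs are also known for 5′ fragments under stress. Of the 20 tRF-5 and tiRNA-5 features of these tRNAs tested, 0 were called and 14 had a positive log2 fold change, with a median of 0.26. Of the 8 such glycine features, 0 were called and 7 were positive, with a median of 0.51, beside 120 positive of all 235 features with a median of 0.01. Of these 7, 3 are the tiRNA-5 features for which no direction could be given. Without reads of 51 nt 5 of the 8 were positive (median 0.23), and without taurocholate replicate 1 it was 4 of the 8 (median -0.06), beside 99 of 238 over all features (median -0.06). In the same 2 settings the features of Glu, Val, His, Asp and Lys had 14 of 20 positive (median 0.11) and 11 of 20 (median 0.13). The glycine median was thus the lower one without taurocholate replicate 1.

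Glycine reads often differed from the reference by 1 base, the most the files hold per read. The share of such reads was 46.1% to 56.4% in each library, and 37.4% to 49.5% among other tRNA reads. Many differed at the last base: of GlyCCC/GlyGCC reads 1-31, T stood in place of the last C in 26.5% to 43.0% and A in 9.79% to 13.4%. Whether such bases were added to the RNA or misread was not tested, so the end positions were also computed with mismatched last bases taken off. Position 30 then became the most frequent end in 5 of 6 libraries, with 29.01%, 24.7% and 25.8% untreated and 34.98%, 36.3% and 29.6% with taurocholate. Positions 29 and 30 stood higher and positions 32, 34 and 35 lower in every taurocholate library. Position 31 then overlapped between the groups, with 21.4%, 25.5% and 22.8% untreated and 27.2%, 29.7% and 25.5% with taurocholate (difference 4.23 percentage points, exact permutation p = 0.2).

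A mismatched last G was the mark of particular libraries. It was in 4.73%, 0.588% and 1.68% of glycine reads untreated and in 9.30%, 0.729% and 1.13% with taurocholate, so untreated replicate 1 and taurocholate replicate 1 were high. Among GlyCCC/GlyGCC reads 1-31 it reached 13.2% in taurocholate replicate 1. A mismatched last C was lower in every taurocholate library, with 2.22% ± 0.202 and 1.27% ± 0.449 of glycine reads (SD, n = 3 each). The higher levels of the fragments ending at 30 and 31 were also found in error-free reads: error-free 1-31 reads numbered 992, 1705 and 1229 untreated and 2801, 2458 and 2157 with taurocholate, and the share ending at 30 was 9.36% ± 0.444 and 16.1% ± 4.49.

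**Figure D5:**
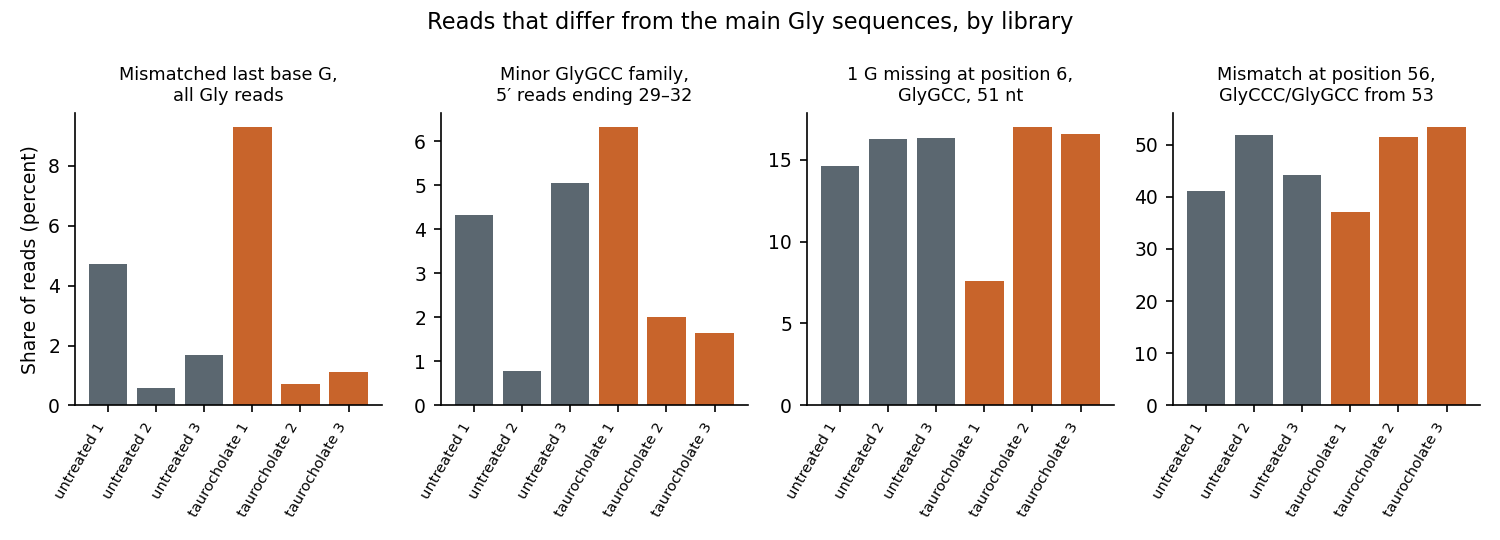
Share of reads (percent, vertical axis, a different range in each panel) that differ from the main glycine sequences, by library. Taurocholate replicate 1 has the most mismatched last G (9.30%) and the least missing G at position 6 (7.59%), and the T-loop mismatch is between 37.0% and 53.4% in all 6.

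Other differences sat at fixed places inside the tRNA. Of GlyGCC 51-nt reads from position 1, 14.6%, 16.2% and 16.3% untreated and 7.59%, 16.99% and 16.6% with taurocholate lacked 1 G of the pair at positions 6 and 7. The same gap was in 7.64% to 10.4% of the shorter 5′ reads of GlyGCC and GlyCCC/GlyGCC and in 5.00% to 8.51% of GlyTCC reads of 51 nt. The GlyGCC 51-nt reads also carried C35A, in the last base of the anticodon, in 9.22% to 13.2% of reads in 5 libraries and 20.2% in taurocholate replicate 1. In GlyCCC form b, C31T was carried by 77.0% to 89.5% of the 51-nt reads of each library, so its error-free sequence printed above was the minority form.

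The A at position 56, the fourth base of the 22-nt 3′ fragment, lies in the T loop and is the base that carries 1-methyladenosine in many tRNAs. Of GlyCCC/GlyGCC reads from position 53, 41.0%, 51.7% and 44.1% untreated and 37.0%, 51.4% and 53.4% with taurocholate had a mismatch there, which was A56T in 97.5% to 99.6% of these reads. GlyCCC had more, 56.9% to 70.9%, and GlyTCC less, 24.5% to 35.1% (A57T in its numbering), and this order held in every library. The groups overlapped for all 3 (exact permutation p = 0.9, 0.9 and 0.4). RNA was treated to remove this methyl group before the libraries were made, per the labels' protocols, and the part of that step in these shares was not tested.

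A minor GlyGCC sequence, from 3 references on chromosome 13, has G in place of the T at position 5 and is shown because it makes up nearly all reads called tRF-5 GlyGCC (79.2% to 96.7%).
GlyGCC minor 1-31: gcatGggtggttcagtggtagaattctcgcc
Among error-free 5′ reads ending at 29 to 32, it was 4.32%, 0.772% and 5.04% of the main and minor sequences together in untreated libraries and 6.32%, 2.01% and 1.63% with taurocholate. Among 51-nt reads it was 0.205% to 0.561%. The level of tRF-5 GlyGCC thus followed single libraries, with 91, 53 and 95 reads without taurocholate and 302, 72 and 88 with it.

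The libraries held 193750 to 348451 tRNA reads and 2791878 to 3987307 miRNA reads. In reads per 1000000 miRNA reads, of the miRNA markers of acinar cells, miR-148a stood at 284614 to 422852, while miR-216a, miR-216b and miR-217, also typical of the exocrine pancreas, were at or near 0 (at most 1.10). Neuroendocrine miR-7a took 55131, 59949 and 58916 untreated and 54810, 41369 and 49685 with taurocholate, lower in every taurocholate library, and miR-375 was 2.51 to 77.5. Markers of blood cells (3) summed to 1945 to 3841, of muscle (2) to 1.003 to 85.0 and of liver (1) to 6.88 to 26.7, with overlapping groups. Their part in the glycine results was not tested.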

How the data were processed

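Small RNA was sequenced from 6 AR42J libraries. Per the file headers, the authors' deposited values are counts: each line is an alignment of 1 distinct read sequence with its number of reads, its start on a tRNA and at most 1 difference from it. Per the submitters' processing notes, FastQC, cutadapt and Novoalign 2.07.11 were used; the genome build is not given in the sources used here. Reads with 2 or more differences, as modified bases can give, are therefore not counted. The files' last position ignores a deleted or inserted base, so it was recomputed from the start, the length and the difference. Reads were 16 to 51 nt; the labels give 50-bp reads, and 51 nt was taken as the read limit. The 3′ end of a tRNA was the last CCA in error-free reads, found for 320 of 389 mature references.

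Features (class and anticodon group) and fragments (both ends) were compared with edgeR 4.0.16 (TMM, filterByExpr, quasi-likelihood test, Benjamini-Hochberg adjustment over the whole table, threshold 0.05), tested on simulated data first, with DESeq2 1.42.0 as an alternative. CPM is per 1000000 tRNA reads of the library. Shares and lengths went through an exact permutation test (two-sided, 3 against 3 libraries), which cannot give a p below 0.1. Named features are those past the filter; named fragments are the 8 most abundant, the most abundant of each anticodon group and the 3 of smallest p in each direction, and others were named after their values were seen. The members and lists were chosen with earlier results of these data known. Same-numbered libraries showed no common correlation, so no pairing was used in the main tests, though 3 pairs cannot exclude it.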

Additional observations from a re-analysis of the deposited data

How the results depend on the processing

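Under the alternatives run, the 2 counts of glycine calls, the 12 shares and lengths and the fragment fold changes mostly kept their direction: 132 alternative values of the counts, shares and lengths kept it, 10 turned sign and 1 count moved, and of the fold changes 407 kept it, 29 turned sign and 2 passed the threshold. The share of tRNA reads, the 5′ share, the mean length and the end positions 30, 31, 32 and 34 kept their sign under every alternative tried. The difference in mean length ranged from -0.553 to -0.421 nt leaving out 1 library, and was -0.466 nt by mean end position, -0.471 nt with mismatched last bases taken off and -0.432 nt with starts within 3 nt, 3 alternatives chosen after seeing the data, as was the same step for end positions. Without a filter on low counts 6 glycine fragments were called, of 45 called in all, where the edgeR fit with the filter called 0. GlyCCC/GlyGCC 1-30 (edgeR adjusted p = 0.00421), GlyCCC/GlyGCC 1-29 and GlyGCC 1-30 and 1-31 were higher and GlyGCC 3-47 and 10-47 lower. The log2 fold changes of the higher fragments moved little, while their SE fell. GlyGCC 1-30 went from 1.45 (SE 0.72) with the filter to 1.52 (SE 0.32), and GlyGCC 1-31 from 1.11 (SE 0.77) to 1.19 (SE 0.30). The SE of GlyCCC/GlyGCC 1-29 went from 0.38 to 0.29 and that of 1-30 from 0.31 to 0.30. The cause was not tested.

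Without reads of 51 nt the difference in the GlyTCC share was -0.0240 points, and the log2 fold changes were -0.33, -0.015 and -0.41 for tiRNA-5 GlyTCC, GlyGCC and GlyCCC. That of tRF-5 GlyTCC, near 0, was 0.028 there and without a filter 0.035, 0.016 with DESeq2's Wald test, 0.015 with its size factors, 0.18 at a tolerance of 1 nt and 0.13 in error-free reads. Error-free reads also gave 0.15 points for the GlyGCC share, -0.051 for tRF-3 GlyCCC and -0.37 for tRF-3 GlyGCC. With library totals these tRF-3 stood at -0.011 and -0.094; that scaling moved the median of all features from 0.01 to -0.12, and the glycine features past an unadjusted p of 0.05 were 1 higher of 2. Counting each sequence once gave 0.361 points for the GlyGCC share and 0.224 for position 33.

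Leaving out 1 library in turn, the differences ranged from -5.90 to 7.05 points for the GlyCCC/GlyGCC share, -5.35 to 5.04 for GlyGCC, -0.512 to 2.02 for GlyTCC and -1.72 to 0.0686 for position 33. Log2 fold changes ranged from -0.38 to 1.28 for tiRNA-5 GlyCCC, -0.37 to 1.93 for tiRNA-5 GlyTCC, -0.17 to 1.23 for tiRNA-5 GlyGCC, -0.15 to 1.06 for tRF-5 GlyGCC, -0.043 to 0.14 for tRF-3 GlyGCC, -0.057 to 0.065 for tRF-5 GlyTCC, -0.23 to 2.05 for GlyGCC 1-52, -0.11 to 2.62 for GlyGCC 1-51, -0.32 to 2.54 for GlyTCC 1-51 and -0.31 to 2.39 for GlyCCC 1-51. Where a group was left with 2 libraries, they were assumed to vary like the rest.

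With the replicate block, 0 glycine features and 0 fragments were called and the difference in mean length was -0.471 nt (exact sign-flip permutation p = 0.25, the smallest for 3 pairs). Same-numbered libraries correlated at -0.21, 0.03 and 0.29 over 235 features, and differently numbered ones at -0.461 to 0.305. With 3 pairs, these values cannot show whether the numbers pair the libraries. The mismatched last G was high in replicate 1 of each group. At 193750 tRNA reads in the shallowest library, fragments of a few reads cannot show a change.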
